A study of Homo sapiens with 9 samples.

Results

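SNHG5 and other long non-coding RNAs that host small nucleolar RNAs (snoRNAs) were examined in the established human colorectal cancer line HCT116. The list held 10 genes, SNHG5, SNHG1, SNHG6, SNHG7, SNHG8, SNHG12, SNHG15, SNHG16, GAS5 and ZFAS1, and each was found by its Ensembl gene identifier with the version dropped. A row was found for 9 of the 10 among the 15354 rows of the table, and SNHG8 had none and was not analysed here. Cells were reverse transfected for 36 h with a commercial non-targeting control siRNA, with siRNA A or with siRNA B, and the labels give 25 nM for every group. Both siRNAs were directed against SNHG5, and nothing else differed between the groups by the labels. Each group held 3 libraries, called replicates 1 to 3, which the study's methods describe as biological replicates. The cells carried no transgene or other added allele by the labels, and all results refer to 1 cell line. SNHG5 stood higher in all 6 libraries labelled as SNHG5 knock-downs than in the 3 control libraries, which goes against the labels. This held in deposited CPM and after scaling by the trimmed mean of M values. Scaled to GAPDH, RPLP0 and HPRT1, its log2 fold change was 0.70 with siRNA A (limma, adjusted p = 0.0024) and 0.20 with siRNA B (limma, adjusted p = 0.302). GAPDH was itself higher by 0.89 (siRNA A) and 0.85 (siRNA B) on the log2 scale under the trimmed mean, beside 1.29 and 0.83 for SNHG5. The paper itself reports lower SNHG5 by qRT-PCR, which it normalized to GAPDH, after both of its SNHG5 siRNAs. Directions below are therefore given between libraries by their labels.

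The introns of snoRNA host genes contain snoRNAs, which are released when the intron is excised and trimmed. A snoRNA of the C/D class guides 2'-O-methylation of ribosomal RNA and one of the H/ACA class guides pseudouridylation. The spliced exons of hosts such as GAS5 hold no long conserved reading frame, and GAS5, SNHG1 and ZFAS1 transcripts are known substrates of nonsense-mediated decay, a translation-dependent pathway that removes RNAs with early stop codons. Several of these hosts also carry a pyrimidine tract at the 5' end, the feature of terminal oligopyrimidine (TOP) transcripts that encode ribosomal proteins. In RefSeq, 37 snoRNA genes lie inside the 10 hosts. GAS5 holds 11 of them, SNHG1 holds 9, SNHG12 holds 4, SNHG16 and ZFAS1 hold 3 each, SNHG5 and SNHG7 hold 2 each, and SNHG6, SNHG8 and SNHG15 hold 1 each.

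The start of the transcript is shown for the 7 hosts with a RefSeq start sequence, because the pyrimidine tract is the sequence feature that links hosts to TOP genes. The sequences are those of RefSeq on GRCh38.p14, from 20 bases before to 30 bases from the annotated start. Capitals mark a tract of at least 5 pyrimidines, searched on the strand of the gene, that opens with the first C of an unbroken pyrimidine run, where that C lies within 10 bases of the start on either side.
SNHG5 (chr6:85678704-85678753, minus strand): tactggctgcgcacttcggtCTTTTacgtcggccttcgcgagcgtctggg
ZFAS1 (chr20:49278622-49278671, plus strand): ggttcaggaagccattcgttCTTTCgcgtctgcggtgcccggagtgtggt
SNHG12 (chr1:28581844-28581893, minus strand): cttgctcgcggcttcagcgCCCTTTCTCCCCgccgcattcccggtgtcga
SNHG16 (chr17:76557744-76557793, plus strand): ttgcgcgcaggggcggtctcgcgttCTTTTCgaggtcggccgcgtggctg
SNHG7 (chr9:136728155-136728204, minus strand): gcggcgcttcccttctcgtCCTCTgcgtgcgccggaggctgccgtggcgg
SNHG1 (chr11:62855856-62855905, minus strand): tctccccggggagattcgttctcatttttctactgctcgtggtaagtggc
GAS5 (chr1:173869016-173869065, minus strand): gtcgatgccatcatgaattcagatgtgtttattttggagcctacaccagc
Such a tract was found in 5 of the 7 windows, and in SNHG5 and ZFAS1 it begins at the first base of the annotated transcript. Of all 35116 genes with a RefSeq start sequence, 31.4% held one, and of the 92 genes of the TOP list 78.3% did. A tract of at least 8 pyrimidines was found by this rule in SNHG12 alone among the 7 hosts, against 8.27% of all genes and 60.9% of the TOP list. SNHG7 holds a longer run of 11 pyrimidines that opens 14 bases before its start, outside the searched bases, and it is not marked. The letters CACGTG, which read the same on both strands, occurred between 250 bases before and 50 bases after the start of SNHG7 and of no other of the 7 hosts, against 7.26% of all genes. These are matches of letters near 1 annotated start per gene, and a window without a match lacks only those letters.

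Library totals ran from 15566530 to 23277549 reads, and the shallowest value of any of the 9 hosts rested on 471 reads (SNHG7, siRNA A). Reads of 2 libraries of the same group differed by more than sampling noise in every pair, so no library was counted as a copy. Epithelial markers were present, with EPCAM at a mean of 179.2, KRT8 at 787.5 and KRT18 at 366.6 CPM in the control libraries. Of the 12 markers of fibroblasts, leukocytes and endothelium, COL1A1 stood at 8.55 to 19.5 deposited CPM and fell by 0.46 and 0.79 on the log2 scale (siRNA A and siRNA B, adjusted p = 0.00878 and 0.000646 in limma), COL3A1 at no more than 0.143 CPM and CD14 at no more than 0.556 CPM, LUM was 0 in all 9 libraries, and the others had no row. Values below are reads of a gene relative to the library total, in CPM, after scaling by the trimmed mean of M values (TMM), unless the deposited CPM are named, and a gene passed the test when its limma adjusted p-value was under 0.05. The mean TMM factor was 1.144 in the control group, 0.886 in the siRNA A group and 0.988 in the siRNA B group, and directions under other scalings are given below. These libraries are from bulk cells, in which fewer cells with a transcript and less RNA per cell cannot be told apart.

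The comparison of siRNA A with control asked which host RNAs differ between the libraries labelled as depleted of SNHG5 and their controls. On the TMM scale 8 of the 9 hosts were higher and none lower (5 and 1 when scaled to the PCR reference genes), against 51.4% of all 13893 genes passing the test, 23.9% as higher and 27.6% as lower. The median log2 fold change of the 9 hosts was 0.96, beside −0.02 over all genes. SNHG1, SNHG15 and SNHG5 had the largest differences, SNHG12 the smallest of those that passed, and SNHG7 did not pass. In 8 of the 9 hosts the 3 siRNA A libraries all lay above the 3 control libraries, as they did in 27.6% of all genes.

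The comparison of siRNA B with control asked the same of the second siRNA. On the TMM scale it gave 7 higher hosts and no lower one (2 and none when scaled to the PCR reference genes), against 34% of all genes passing the test, 15.6% as higher and 18.3% as lower. The median of the 9 hosts was 0.56, beside 0.0043 over all genes. SNHG7 and SNHG15 did not pass. In 7 of the 9 hosts all siRNA B libraries lay above all control libraries, against 22.5% of all genes, with SNHG15 among these 7 and SNHG16 not. Both comparisons use the same 3 control libraries, and 7 hosts passed as higher in each of them, SNHG5, SNHG1, SNHG6, SNHG12, SNHG16, GAS5 and ZFAS1.

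**Figure D1:**
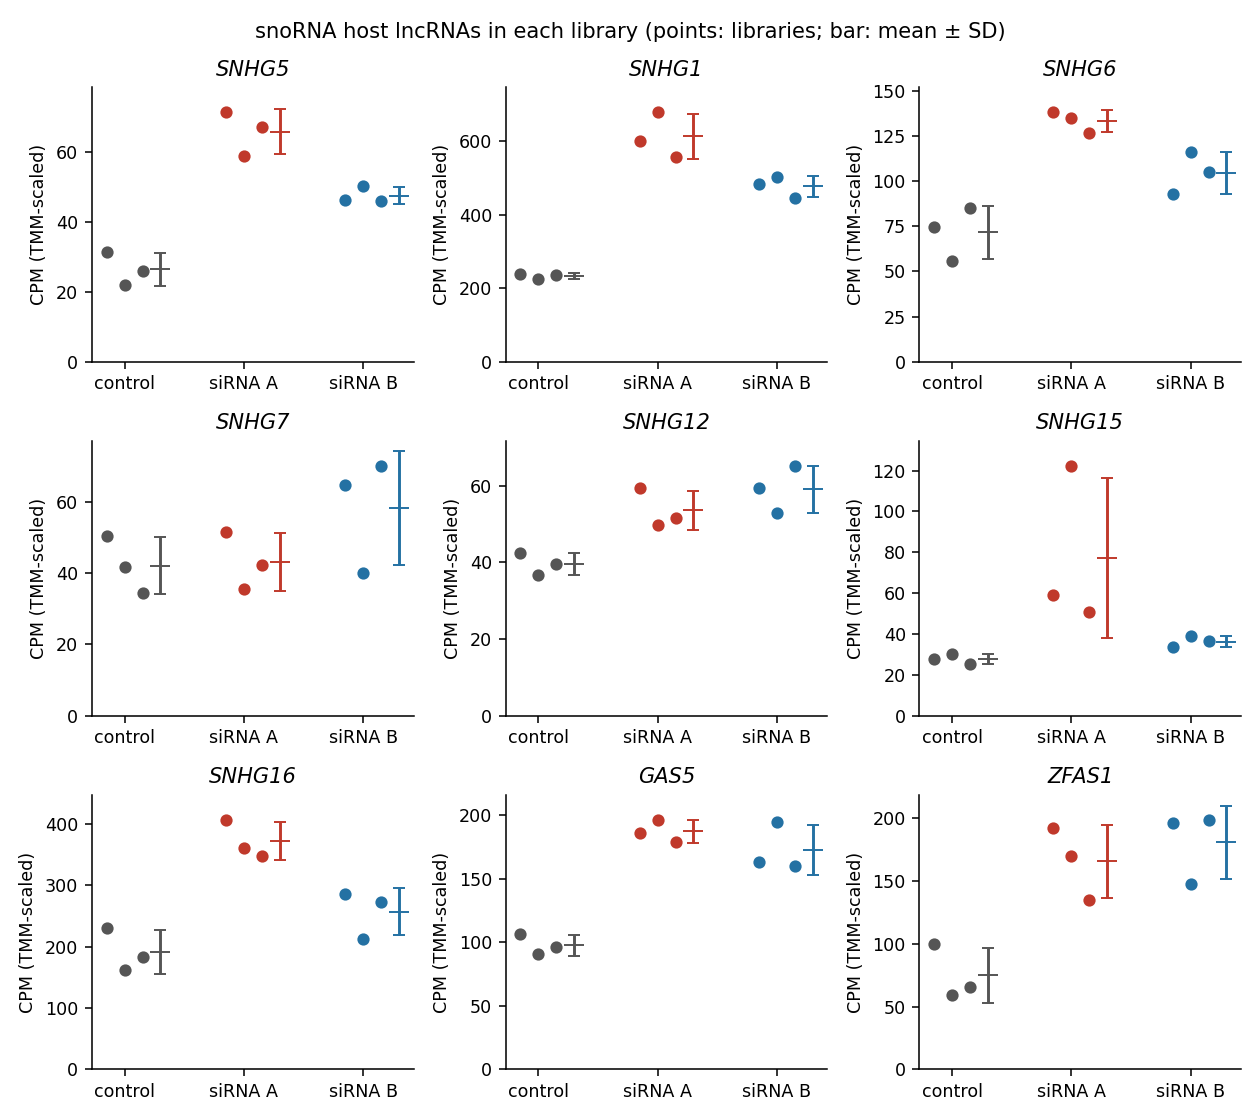
TMM-scaled CPM (y axis, linear from 0) of the 9 snoRNA host RNAs in each of the 3 control, 3 siRNA A and 3 siRNA B libraries, with replicates 1 to 3 from left to right and the group mean ± SD beside them. The siRNA A points lie above the control points in every panel except SNHG7, and siRNA A replicate 2 stands at 122.3 in the SNHG15 panel, above its group's other 2 libraries at 59.0 and 50.6.

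SNHG5 (ENSG00000203875.5, chr6:86360209-86388650, minus strand, GRCh37) is the target of both siRNAs and the host of SNORD50A and SNORD50B. These coordinates are those of the GENCODE annotation lifted to GRCh37, and the gene model the authors counted with may differ. In that annotation SNHG5 overlaps the pseudogene PKMP3 and the gene ENSG00000271793 on the same strand, so the source of some reads is uncertain. Its scaled levels were 31.3, 22.1 and 25.9 CPM in the control libraries, 71.5, 58.8 and 67.3 CPM where the label was siRNA A and 46.2, 50.3 and 46.1 CPM where it was siRNA B. The 3 groups did not overlap, with siRNA B between the others. The log2 fold change was 1.29 for siRNA A (95% interval 1.01 to 1.58, limma, adjusted p = 1.86e-05) and 0.83 for siRNA B (0.55 to 1.12, limma, adjusted p = 0.00059). SNHG5 stood at the 98.8th percentile of all log2 fold changes with siRNA A and at the 97.7th with siRNA B, so few genes lay above it in either comparison.

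SNHG1 (ENSG00000255717.1, chr11:62619450-62623425, minus strand) hosts SNORD22 and SNORD25 to SNORD31 and was the most abundant of the 9 hosts per length in each group. It stood at 238.9, 223.8 and 236.5 CPM in control, at 601.0, 678.1 and 557.4 CPM with siRNA A and at 483.9, 501.0 and 445.8 CPM with siRNA B. No 2 groups overlapped, and the control libraries varied least, with a coefficient of variation of 3.48%. Its log2 fold change was 1.39 with siRNA A (1.16 to 1.61, limma, adjusted p = 2.92e-06) and 1.03 with siRNA B (0.80 to 1.25, limma, adjusted p = 3.87e-05). SNHG1 had the smallest adjusted p-value of the 9 hosts in both comparisons.

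GAS5 (ENSG00000234741.2, chr1:173827697-173838020, minus strand) was first found as a growth-arrest transcript and is the host with the most snoRNAs of the list. Its levels were 106.5, 90.6 and 96.0 CPM in control, 186.4, 196.7 and 179.2 CPM with siRNA A and 163.1, 195.0 and 160.1 CPM with siRNA B. Both siRNA groups lay above control, and they overlapped each other. The log2 fold changes were 0.94 (0.70 to 1.17, limma, adjusted p = 4.04e-05) and 0.81 (0.58 to 1.05, limma, adjusted p = 0.000202). GAS5 overlaps ZBTB37 on the other strand.

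ZFAS1 (ENSG00000177410.8, chr20:47894715-47916137, plus strand) starts head to head with ZNFX1 and hosts SNORD12, SNORD12B and SNORD12C. It stood at 99.9, 59.2 and 65.4 CPM in control, at 192.5, 169.9 and 134.9 CPM with siRNA A and at 195.8, 147.5 and 198.8 CPM with siRNA B. Control replicate 1 was high within its group, and control still lay below both siRNA groups. Its log2 fold change with siRNA B was the largest of the 9 hosts. The values were 1.16 with siRNA A (0.73 to 1.59, limma, adjusted p = 0.000515) and 1.29 with siRNA B (0.86 to 1.71, limma, adjusted p = 0.000527).

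SNHG6 and SNHG12 passed with both siRNAs with smaller values than SNHG1 and SNHG5. SNHG6 (ENSG00000245910.2, on the minus strand of chromosome 8), the host of SNORD87, stood at 74.3, 55.7 and 84.8 CPM in control, at 138.0, 135.0 and 126.3 CPM with siRNA A and at 92.7, 116.2 and 104.7 CPM with siRNA B. Its groups did not overlap in either comparison with control, and the log2 fold changes were 0.91 (limma, adjusted p = 0.000339) and 0.55 (limma, adjusted p = 0.0114). SNHG12 (ENSG00000197989.8, chr1:28905050-28909644, minus strand), which hosts SNORD99 and 3 H/ACA snoRNAs, stood at 42.5, 36.6 and 39.6 CPM in control, at 59.4, 49.7 and 51.5 CPM with siRNA A and at 59.4, 52.9 and 65.1 CPM with siRNA B. Both siRNA groups lay above control by a small margin. Its log2 fold changes of 0.43 (limma, adjusted p = 0.00824) and 0.56 (limma, adjusted p = 0.00279) put it last among the hosts that passed with siRNA A and in the middle of the 9 hosts with siRNA B.

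SNHG16 (ENSG00000163597.9, chr17:74553809-74667067, plus strand) hosts SNORD1A, SNORD1B and SNORD1C. It stood at 231.3, 161.8 and 182.7 CPM in control, at 407.4, 360.5 and 348.5 CPM with siRNA A and at 285.7, 213.4 and 272.4 CPM with siRNA B. The siRNA A libraries were apart from all others, while siRNA B replicate 2 lay below control replicate 1. The log2 fold change with siRNA A was 0.96 (0.64 to 1.29, limma, adjusted p = 0.000271). That with siRNA B was 0.42 (0.10 to 0.75, limma, adjusted p = 0.0435) and it passed narrowly. It no longer passed without control replicate 2 (0.29, limma, adjusted p = 0.184), without control replicate 3 (0.40, limma, adjusted p = 0.12), without siRNA B replicate 1 (0.34, limma, adjusted p = 0.163), without siRNA B replicate 3 (0.38, limma, adjusted p = 0.115) or without any 1 of the siRNA A libraries (adjusted p from 0.0503 to 0.0574). The call was also lost under library totals (0.21, adjusted p = 0.31), with no filter (adjusted p = 0.0524), with the GC correction (0.37, adjusted p = 0.0829) and with only the 2 groups in the limma model (adjusted p = 0.0652). It held in 7 of the 19 alternative settings.

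SNHG15 and SNHG7 did not pass with siRNA B. SNHG15 (ENSG00000232956.3, chr7:45022618-45026560, minus strand), the host of SNORA9, stood at 27.7, 29.9 and 25.4 CPM in control, at 59.0, 122.3 and 50.6 CPM with siRNA A and at 33.4, 38.9 and 36.3 CPM with siRNA B. The siRNA A group lay above control, and siRNA A replicate 2 stood apart from the other libraries of its group. The log2 fold change with siRNA A was 1.34 (0.80 to 1.88, limma, adjusted p = 0.000898), and without siRNA A replicate 2 it was 0.96 (limma, adjusted p = 0.000211). With siRNA B it was 0.38 (−0.16 to 0.92, limma, adjusted p = 0.265), although all 3 siRNA B libraries lay above all 3 control libraries. This value passed without siRNA A replicate 2 (0.38, limma, adjusted p = 0.0223) and with the siRNA A libraries out of the model (0.38, limma, adjusted p = 0.0293), since the spread is shared by all groups.

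SNHG7 (ENSG00000233016.1, chr9:139615818-139622636, minus strand), the host of SNORA17A and SNORA17B, was the host with no call against control. It stood at 50.3, 41.6 and 34.3 CPM in control, at 51.6, 35.6 and 42.2 CPM with siRNA A and at 64.6, 40.2 and 70.1 CPM with siRNA B. All 3 groups overlapped, and siRNA B replicate 2 stood apart from its group. The differences were 0.04 with siRNA A (−0.42 to 0.49, limma, adjusted p = 0.896) and 0.44 with siRNA B (−0.02 to 0.90, limma, adjusted p = 0.127), so a difference as large as that of SNHG12 is inside both intervals. Without siRNA B replicate 2 the value with siRNA B was 0.68 and passed (limma, adjusted p = 0.0126), and with the GC correction it was 0.55 and passed (limma, adjusted p = 0.0476). Without siRNA B replicate 3 it was 0.29 (limma, adjusted p = 0.354) and without control replicate 3 it was 0.30 (limma, adjusted p = 0.364).

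**Figure D2:**
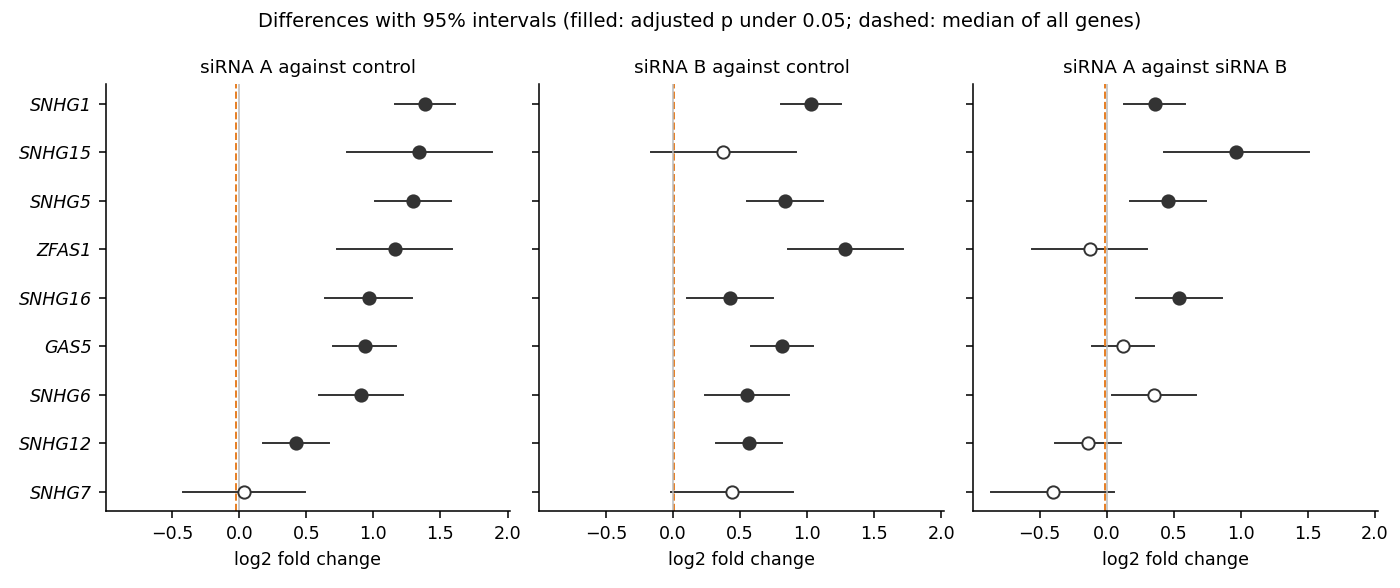
Log2 fold changes (x axis) of the 9 snoRNA host RNAs with 95% intervals from limma, in the 3 comparisons named above the panels. Filled points passed the test, 8 with siRNA A, 7 with siRNA B and 4 between siRNA A and siRNA B, and the dashed line at −0.02, 0.0043 and −0.01 is the median of all genes.

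The direct comparison of siRNA A with siRNA B asked whether the 2 siRNAs, which share a target, gave different levels of the host RNAs. Here 4 of the 9 hosts were higher with siRNA A and none lower, against 37.1% of all genes passing the test, 17.6% as higher and 19.5% as lower. SNHG15 differed most, by 0.97 (0.42 to 1.51, limma, adjusted p = 0.0101), or by 0.58 without siRNA A replicate 2 (limma, adjusted p = 0.00572). SNHG16 differed by 0.54 (0.22 to 0.86, limma, adjusted p = 0.0139), SNHG5 by 0.46 (0.18 to 0.74, limma, adjusted p = 0.0163) and SNHG1 by 0.36 (0.13 to 0.58, limma, adjusted p = 0.0181). Of these 4 only SNHG15 passed in each setting that left out 1 library. The call of SNHG5 was lost without siRNA A replicate 1 (adjusted p = 0.0622), siRNA A replicate 3 (0.0503) or siRNA B replicate 1 (0.0558), that of SNHG1 without siRNA A replicate 2 (0.0627) or siRNA B replicate 3 (0.0716), and that of SNHG16 without siRNA A replicate 1 (0.0526), all by limma.

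For the other 5 hosts no difference between the siRNAs was detected. SNHG6 was higher in all 3 siRNA A libraries than in all 3 siRNA B libraries, by 0.35 (0.04 to 0.66, limma, adjusted p = 0.0751), and it passed without control replicate 2 (limma, adjusted p = 0.0266) or siRNA B replicate 2 (limma, adjusted p = 0.0487). GAS5 differed by 0.12 (−0.11 to 0.35), ZFAS1 by −0.13 (−0.55 to 0.30), SNHG12 by −0.14 (−0.39 to 0.11) and SNHG7 by −0.40 (−0.86 to 0.06). The intervals of GAS5 and SNHG12 reach no further than 0.39 in either direction, and those of ZFAS1 and SNHG7 extend, on the side of siRNA B, past the differences that passed for SNHG5 and SNHG1.

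The levels of the 9 hosts were put in order per length, as scaled CPM per kb of the median annotated transcript length. For SNHG5 this is 1105 bases over 89 annotated transcripts, and not the length of the isoform expressed. The paper names the shorter main isoform of SNHG5 as the most abundant in CRC, so its place depends on the length used. In the control libraries SNHG1 stood first at 177.9 ± 6.19 (SD, n = 3). SNHG6 (137.9 ± 28.4), GAS5 (133.6 ± 11.05), ZFAS1 (109.0 ± 32.0) and SNHG16 (78.1 ± 14.5) followed, and the ranges of neighbours in this order overlapped. A gap separated these from SNHG12 (36.6 ± 2.73) and SNHG7 (35.98 ± 6.85), which overlapped, and from SNHG15 (26.2 ± 2.15) and SNHG5 (23.9 ± 4.22), which also overlapped. By the median annotated length SNHG5 was thus the lowest of the hosts in control. It stood at 59.6 ± 5.84 in seventh place in the siRNA A libraries, where SNHG7 was lowest at 36.9 ± 6.89, and at 43.0 ± 2.17 in eighth place in the siRNA B libraries, where SNHG15 was lowest at 34.3 ± 2.64. Summed over the 9 hosts, the scaled level was 902.8, 721.2 and 790.6 CPM in control, 1767, 1807 and 1558 CPM with siRNA A and 1425, 1355 and 1399 CPM with siRNA B.

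Likeness to SNHG5 was measured as the root mean square difference between log2 values centred on each gene's mean, over the 9 libraries and 13892 genes. The most like genes were SMNDC1, a splicing factor related to SMN, at 0.0872, TNFRSF10D, a TRAIL receptor without a working death domain, at 0.123, SPOP, a substrate adaptor of a ubiquitin ligase, at 0.126, ENSG00000230551 at 0.134 and ARHGAP5 at 0.135. Among the hosts SNHG1 came closest at 0.178, in 35th place over all genes. GAS5 was 76th, SNHG6 123rd, SNHG16 161st and ZFAS1 900th. SNHG12 (1662nd), SNHG15 (3195th) and SNHG7 (6362nd) were far down the order.

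Rows of their own were found for 6 snoRNAs inside the hosts. Mature snoRNAs carry no poly(A) tail and these libraries were purified with oligo-dT, so reads in these rows may come from snoRNA or from intron-retaining host RNA, which cannot be told apart. The sequences, read on GRCh37 at the GENCODE coordinates, are shown for the 4 rows of ZFAS1 and SNHG16. The C box (TGATGA) and the last D box (CTGA), which define the C/D class, are in capitals.
SNORD12C (ZFAS1, chr20:47895477-47895565, plus strand): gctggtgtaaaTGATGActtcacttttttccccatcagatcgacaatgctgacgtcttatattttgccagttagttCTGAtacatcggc
SNORD12B (ZFAS1, chr20:47896856-47896946, plus strand): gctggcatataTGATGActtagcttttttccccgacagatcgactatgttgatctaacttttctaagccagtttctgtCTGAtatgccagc
SNORD12 (ZFAS1, chr20:47897220-47897309, plus strand): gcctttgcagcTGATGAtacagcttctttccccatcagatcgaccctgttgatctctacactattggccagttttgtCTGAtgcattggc
SNORD1B (SNHG16, chr17:74557191-74557274, plus strand): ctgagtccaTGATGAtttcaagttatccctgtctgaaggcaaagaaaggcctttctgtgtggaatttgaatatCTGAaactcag
SNORD12C stood at 0.907, 0.828 and 0.916 deposited CPM in control, from 16 to 20 reads, at 4.18, 5.85 and 3.77 CPM with siRNA A, from 77 to 91 reads, and at 0.648, 1.16 and 1.20 CPM with siRNA B. SNORD12B stood at 1.32, 0.414 and 0.675 deposited CPM in control, at 3.23, 6.04 and 2.94 CPM with siRNA A and at 0.787, 1.59 and 1.42 CPM with siRNA B. SNORD12B was higher in all siRNA A libraries than in any other, and siRNA A replicate 2 was the highest.

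Without the siRNA A libraries, SNORD12C, SNORD12, SNORD1B and SNORD78 would not have reached the filter of 1 CPM in 3 libraries, so a difference in them was built in and only their values are given. SNORD12B passed with siRNA A, by 1.69 on the log2(CPM + 1) scale, which understates changes of such low rows (SE 0.26, limma, adjusted p = 0.000289). With siRNA B its difference was 0.43 (limma, adjusted p = 0.225). Between siRNA A and siRNA B it was 1.26 (limma, adjusted p = 0.00329), beside −0.13 for the host ZFAS1 (limma, adjusted p = 0.648). Of all 48 snoRNA rows 46 were tested, with 34 higher and 0 lower with siRNA A (median 1.12). With siRNA B 9 were higher and 1 lower (0.42), and between the siRNAs 29 were higher and 1 lower (0.80). Of all genes 23.9%, 15.6% and 17.6% passed as higher. Higher values with siRNA A were thus not particular to the rows inside these hosts. How many of the 46 reached the filter only through the siRNA A libraries was not counted.

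The values by library in this paragraph are deposited CPM. SNORD12 stood at 0.544, 0.673 and 0.530 CPM in control, at 1.33, 2.51 and 1.76 CPM with siRNA A and at 0.648, 0.673 and 0.558 CPM with siRNA B. SNORD1B in SNHG16 stood at 0.272, 0.155 and 0.0964 CPM in control, from 2 to 6 reads, at 1.09, 3.21 and 1.27 CPM with siRNA A, from 23 to 50 reads, and at 0.324, 0.367 and 0.387 CPM with siRNA B, from 6 to 9 reads. Both rows reached the filter only through the siRNA A libraries. SNORD78 in GAS5 stood at 0.635, 0.880 and 0.482 CPM in control, at 1.05, 2.31 and 1.32 CPM with siRNA A and at 0.926, 1.29 and 0.945 CPM with siRNA B. SNORD99 in SNHG12 overlapped between the groups in deposited CPM, with siRNA A replicate 2 at 0.964 CPM and control replicate 1 at 1.04 CPM. On the TMM scale used for the test, the siRNA A libraries lay above the control libraries. The means there were 0.727 CPM in control, 1.62 CPM with siRNA A and 1.37 CPM with siRNA B. SNORD99 passed with siRNA A (0.59, limma, adjusted p = 0.0294) and not with siRNA B (0.43, limma, adjusted p = 0.129).

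**Figure D3:**
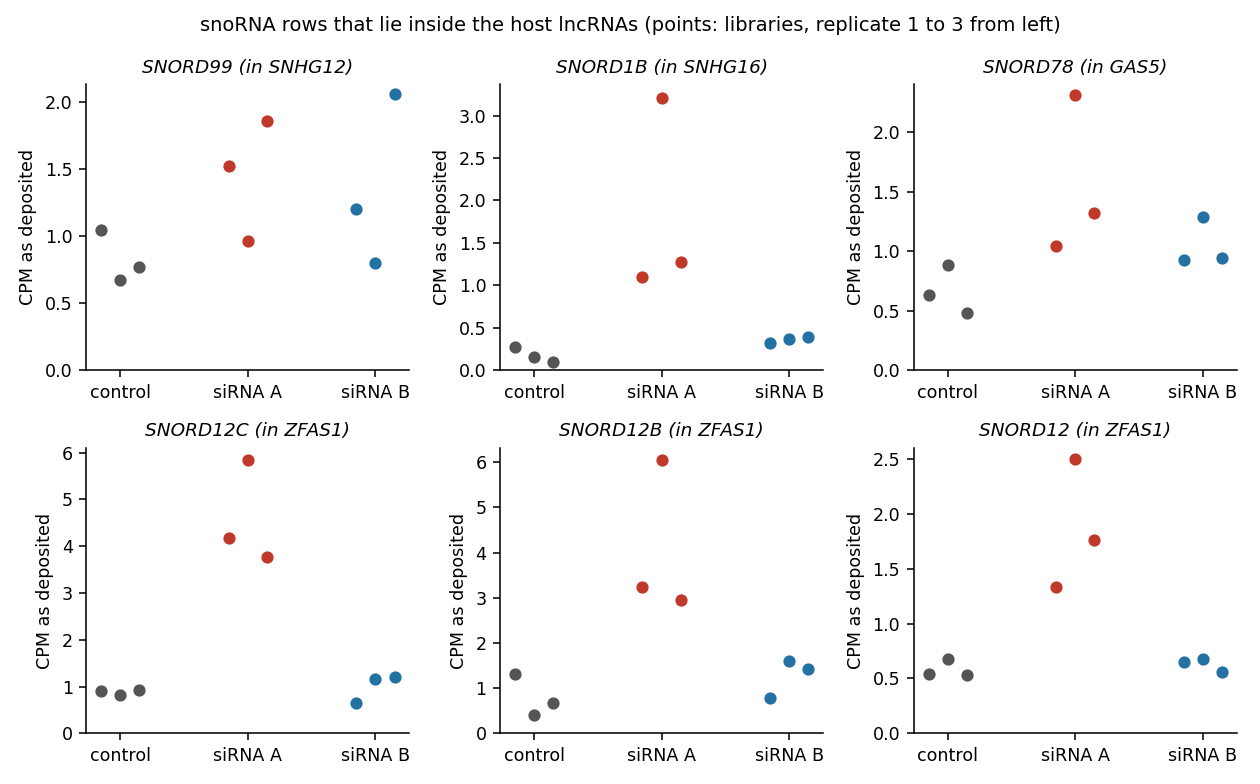
Deposited CPM (y axis, linear from 0) of the 6 snoRNA rows that lie inside SNHG12, SNHG16, GAS5 and ZFAS1, in the 9 libraries with replicates 1 to 3 from left to right. The siRNA A points lie above all others for SNORD12B, while SNORD99 overlaps between all 3 groups. SNORD12C, SNORD12, SNORD1B and SNORD78 reached the filter only through the siRNA A libraries, so a difference in them was built in.

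Genes that overlap a host or start within 1 kb of it on the other strand were read beside it, because the use of strand in the authors' counting is not given in the sources used here. Overlaps and distances are those of the GENCODE annotation lifted to GRCh37, and they may differ in the annotation the authors counted with. TRNAU1AP, which overlaps SNHG12 on the other strand and acts in selenocysteine incorporation, rose with both siRNAs by 1.11 and 0.98 (adjusted p = 1e-04 and 0.000433 in limma), beside 0.43 and 0.56 for SNHG12. ZNFX1, whose start lies 248 bases from that of ZFAS1, rose by 0.63 and 0.32 (adjusted p = 0.000387 and 0.0299 in limma), beside 1.16 and 1.29 for ZFAS1. SLC3A2, a subunit of amino acid transporters that starts 51 bases from SNHG1, rose with siRNA A by 0.71 (limma, adjusted p = 0.00491) and differed by 0.42 with siRNA B (limma, adjusted p = 0.0765). ST6GALNAC2 at SNHG16 rose with siRNA A by 0.90 (limma, adjusted p = 0.00235), MCMDC2 at SNHG6 by 0.73 (limma, adjusted p = 0.00882) and ZBTB37 at GAS5 by 0.63 (limma, adjusted p = 0.0157), and none of these 3 passed with siRNA B (adjusted p = 0.112, 0.278 and 0.645 by limma). DIPK1B at SNHG7 differed by −0.27 and −0.24 and did not pass. Where a host and its partner on the other strand overlap, reads on the shared bases cannot be told apart without strand. SLC3A2 does not overlap SNHG1 in the annotation. TRNAU1AP reaches base 28905057 and SNHG12 covers 28905050 to 28909644, so they share few bases. The part of the partners in the values of the hosts was not tested.

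Further non-coding snoRNA hosts and the machinery around them were read as lists. Over all genes 51.4% passed with siRNA A and 34% with siRNA B on the TMM scale, with medians of −0.02 and 0.0043, and 63.8% and 67.1% passed when scaled to the PCR reference genes, with medians of −0.56 and −0.58. Of 23 other non-coding hosts 17 had a row and were tested. On the TMM scale 8 were higher with siRNA A and 4 with siRNA B, with none lower. When scaled to the PCR reference genes 6 and 2 were higher and 4 and 5 lower. Their median log2 fold changes were 0.25 and 0.22 on the TMM scale and −0.21 and −0.32 on that of the PCR reference genes. Control means were 6.47 to 357.1 CPM for the 8 that passed with siRNA A and 1.60 to 9.73 CPM for the 9 that did not. Those of the 13 that did not pass with siRNA B were 1.60 to 93.7 CPM. The 9 hosts of the main list had control means of 26.5 to 233.1 CPM, so the 2 medians compare genes of unlike level. SNHG3 (1.43, limma, adjusted p = 6.34e-06, and 0.74, limma, adjusted p = 0.000791) and SNHG29 (1.15, limma, adjusted p = 3.67e-05, and 1.31, limma, adjusted p = 3.53e-05) passed with both siRNAs. DANCR was higher with siRNA A (1.05, limma, adjusted p = 5.91e-05) and stood at −0.15 with siRNA B (limma, adjusted p = 0.386). The protein-coding genes with an annotated snoRNA inside them on the same strand gave 125 higher and 66 lower of 320 tested with siRNA A, and 109 higher and 44 lower with siRNA B, beside 23.9% higher and 27.6% lower of all genes with siRNA A and 15.6% and 18.3% with siRNA B. Their medians were 0.17 and 0.16 on the TMM scale. Of the 335 rows of this list, 32 were also in the TOP list.

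The core proteins of snoRNA particles numbered 8, of which 7 were higher with siRNA A and 1 with siRNA B on the TMM scale. When scaled to the PCR reference genes 1 and 0 were higher and 1 and 6 lower. SNU13, the protein that binds the C/D motif first, differed by 1.14 and 0.23 (adjusted p = 0.000187 and 0.308 in limma), and DKC1, the pseudouridine synthase of H/ACA particles, by 0.60 and 0.37 (adjusted p = 0.00203 and 0.0398 in limma). The medians of this list were 0.60 and 0.23 on the TMM scale and −0.01 and −0.42 when scaled to the PCR reference genes. Among the 9 assembly factors 3 were higher and 1 lower with siRNA A, and 1 was higher and 2 lower with siRNA B, which is near the share of all genes that passed. Their medians were 0.21 and −0.12, and when scaled to the PCR reference genes none was higher and 4 and 8 were lower. ZNHIT6, which acts in C/D assembly, was higher with both (0.79, limma, adjusted p = 0.000441, and 0.51, limma, adjusted p = 0.0105).

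Of 17 factors of nonsense-mediated decay and the exon junction, 5 were higher and 3 lower with siRNA A, and 3 were higher and 2 lower with siRNA B, while none was higher and 6 and 14 were lower when scaled to the PCR reference genes. The counts on the TMM scale lie near the share of all genes that passed, and the medians of the list were 0.18 and 0.08. UPF1, the RNA helicase at the centre of that pathway, fell by 0.41 on the log2 scale with siRNA A (limma, adjusted p = 0.00258) and fell by 0.77 with siRNA B (limma, adjusted p = 8.93e-05). DHX34 and RNPS1 went the other way. DHX34 rose by 0.67 with siRNA A (limma, adjusted p = 0.000116) and differed by 0.19 with siRNA B (limma, adjusted p = 0.128). RNPS1 rose by 0.60 and 0.29 (adjusted p = 0.00042 and 0.0414 in limma). Of 12 coding genes known as decay substrates 9 were higher with siRNA A and 7 with siRNA B, and none was lower on the TMM scale, while 3 and 2 were higher and 2 and 3 lower when scaled to the PCR reference genes. The medians were 0.79 and 0.48 on the TMM scale and 0.19 and −0.17 on the other. ATF3, a stress-response transcription factor, rose by 2.53 and 1.34 (adjusted p = 4.42e-05 and 0.00456 in limma). The TOP list of ribosomal proteins and elongation factors had 89 of 91 genes higher with siRNA A and 72 with siRNA B, against 51 and 3 higher and 2 and 6 lower when scaled to the PCR reference genes, with medians of 0.96 and 0.65 on the TMM scale and of 0.35 and −0.01 when scaled to the PCR reference genes. These lists were chosen with earlier results of these data known.

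**Figure D4:**
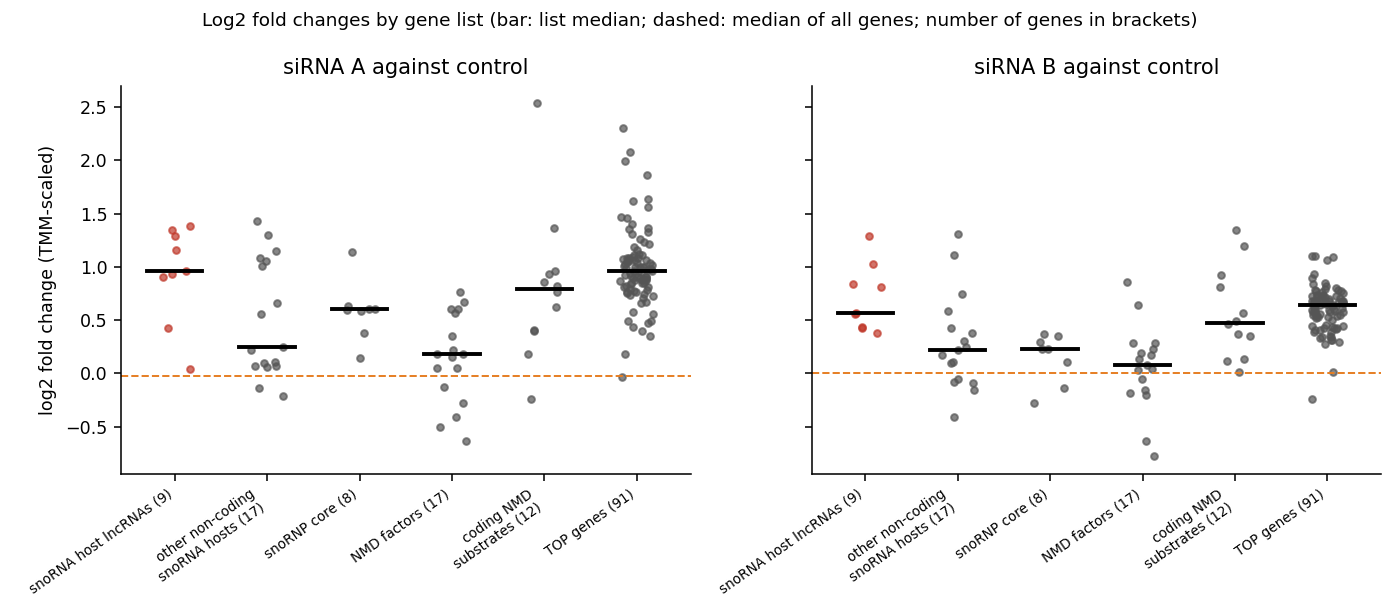
Log2 fold changes against control (y axis, TMM scale) of each gene of the 9 snoRNA host RNAs and of 5 lists, for siRNA A (left) and siRNA B (right), with the list median as a bar and the median of all genes as a dashed line. The medians of the 9 hosts (0.96 and 0.56) lie near those of the TOP list (0.96 and 0.65) and above those of the 17 other non-coding hosts (0.25 and 0.22). Of these 17, the 9 that did not pass with siRNA A had control means of 1.60 to 9.73 CPM, where this scale understates changes. Control means of the 9 hosts were 26.5 to 233.1 CPM.

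The median deposited CPM over all rows was 19.0 to 20.6 in the control libraries, 12.9 to 13.9 with siRNA A and 15.02 to 16.8 with siRNA B. MALAT1, an abundant nuclear RNA, was higher by 1.64 and 2.15 (adjusted p = 0.000279 and 9.49e-05 in limma). Of the 13 mitochondrially encoded genes and 2 nuclear RNAs in 1 list, 7 were higher with siRNA A and 4 with siRNA B and none lower, beside 23.9% and 15.6% of all genes as higher, with medians of 0.51 and 0.44. When scaled to the PCR reference genes 1 and 2 of them were higher and 1 was lower with each siRNA. Of 7 epithelial markers 4 were higher and 1 lower with siRNA A and 2 were higher with siRNA B, with medians of 1.01 and 0.27, and when scaled to the PCR reference genes 4 and 0 were higher and 3 and 4 lower. The part of these values in the levels of the hosts was not tested.

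The direction of the smaller differences depended on the scaling between libraries. Scaling by library totals moved the median of all genes to −0.34 (siRNA A) and −0.18 (siRNA B), and scaling to GAPDH, RPLP0 and HPRT1 moved it to −0.56 and −0.58. The median of the 9 hosts lay 0.99, 0.94 and 0.92 above that median with siRNA A under TMM, totals and PCR reference genes, and 0.56, 0.54 and 0.50 above it with siRNA B. A scaling shifts all genes of a library by about the same amount, so this distance is nearly fixed by construction and is no sign of stability. SNHG5, SNHG1, SNHG15, SNHG16 and ZFAS1 passed as higher with siRNA A under all 3 scalings. With siRNA B only SNHG1 and ZFAS1 did so, and SNHG6, SNHG7, SNHG12, SNHG15 and SNHG16 stood below control when scaled to the PCR reference genes, with none of them passing the test. Of the PCR reference genes themselves, 2 of 3 were higher on the TMM scale with siRNA A and 3 of 3 with siRNA B, GAPDH by 0.89 and 0.85 (adjusted p = 0.000466 and 0.00119 in limma), HPRT1 by 0.77 and 0.44 (adjusted p = 0.000315 and 0.015 in limma) and RPLP0 by 0.68 with siRNA B (limma, adjusted p = 0.000966). RPLP0 differed by 0.18 with siRNA A and did not pass (limma, adjusted p = 0.206).

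**Figure D5:**
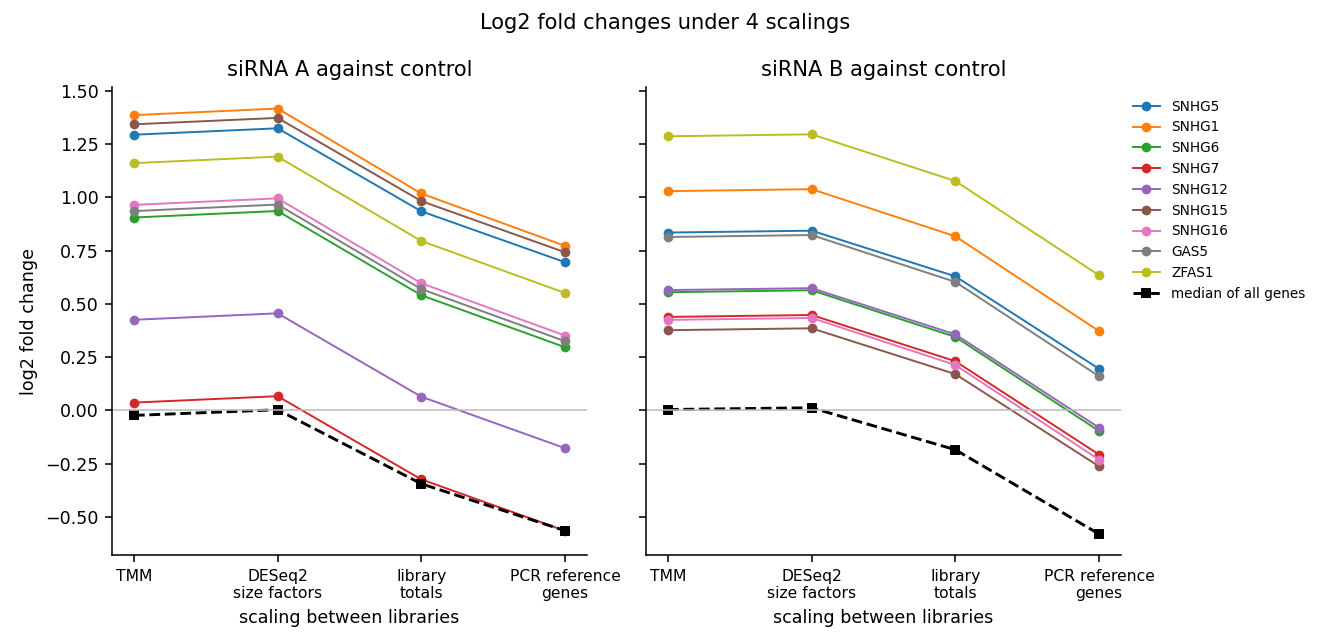
Log2 fold changes against control (y axis) of the 9 snoRNA host RNAs under 4 scalings between libraries (x axis), for siRNA A (left) and siRNA B (right), with the median of all genes as a dashed black line. A scaling shifts all genes of a library by about the same amount, so the lines follow that median, which falls from −0.02 to −0.56 with siRNA A and from 0.0043 to −0.58 with siRNA B.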

How the data were processed

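Poly(A) RNA of 9 HCT116 samples was sequenced from single ends. The authors deposited CPM values, in which gene reads are relative to the total of the library. The submitters' processing notes list TopHat2, HTSeq and the GRCh37 build. The use of strand and the gene annotation are not given in the sources used here. The label of the dose differs from that in the study's methods, which give a higher one, and the labels do not say which named siRNA is A and which is B.

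Of 15354 identifiers, 14871 matched the GENCODE annotation lifted to GRCh37. All deposited values (100%) were whole multiples of 1 read within a tolerance of 0.01, so reads were recovered. Genes with at least 1 CPM in 3 of 9 libraries were tested (13893), as log2(TMM-scaled CPM + 1), with limma 3.58.1 in R 4.3.3, a variance trend, 1 model for all 9 libraries, two-sided p-values and Benjamini-Hochberg adjustment over all genes tested. A fold change on this scale understates that of low genes. Tests had been planned for CPM, with edgeR 4.0.16 and DESeq2 1.42.0 on recovered reads as alternatives. edgeR's quasi-likelihood test called 7160, 4780 and 5105 genes with siRNA A, with siRNA B and between the siRNAs, of which 7070, 4675 and 5034 were also called by limma. The fit was tested on simulated data. Other alternatives were library totals, DESeq2 size factors, PCR reference genes, a pseudocount of 0.1, no filter, a GC correction, a replicate block, each library left out in turn, and only the 2 groups compared.

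Named genes were the 10 listed hosts, the genes overlapping or facing them within 1 kb, snoRNA rows inside them, the 5 genes most like SNHG5, and from each list at most the 3 members with the smallest adjusted p in either siRNA comparison. RPLP0, KRT8, KRT18, EPCAM and COL1A1 were named as references or markers. Not every gene this rule names is reported here. The hosts and lists were chosen with earlier results of these data known. Same-numbered libraries of control and siRNA A deviated together from their group means, weakly so for replicate 3. Correlations across genes were 0.65, 0.41 and 0.13 for replicates 1, 2 and 3, so these numbers may mark pairs. The reported tests were unpaired, and pairing entered only as the replicate block, an alternative setting. The replicate block changed no call of a host in that comparison. A value of 3 reads, taken as the floor, stood for 0.129 to 0.193 CPM, and such limits cover counting error only, as reads carry no molecular identifiers. Figures used Python 3.11.15 with matplotlib 3.10.9.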

Additional observations from a re-analysis of the deposited data

Results flagged for a closer look

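The effect against the same control libraries differed between the 2 siRNAs for 4 of the 9 hosts, by the test of the difference itself (siRNA A minus siRNA B, limma). The difference was 0.97 for SNHG15, 0.54 for SNHG16, 0.46 for SNHG5 and 0.36 for SNHG1 on the log2 scale, and all 3 siRNA A libraries stood above all 3 siRNA B libraries in each. Of all 13893 genes 37.1% passed the same test, so 4 of 9 is near the share of all genes, and 17.6% passed as higher. Without siRNA A replicate 2 the difference of SNHG15 was 0.58 (limma, adjusted p = 0.00572). The calls of SNHG16, SNHG5 and SNHG1 were each lost on leaving out 1 library or another and under library totals, where 1 of the 9 hosts was called, and 2 were called without siRNA A replicate 1.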

How the results depend on the processing

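Over the 9 hosts, 19 settings besides the reported one and 3 comparisons, 465 of 513 log2 fold changes kept their direction and their side of the threshold. Part of this was fixed in advance. The replicate block leaves the fold change itself as it was, and leaving out a library of the group not compared hardly moves it. This total is therefore no measure of stability. Scaling to the PCR reference genes changed most. It left 5 hosts higher and 1 lower with siRNA A, where SNHG7 stood at −0.56 (limma, adjusted p = 0.0225), and 2 called, both higher, with siRNA B. Directions turned there for SNHG12 with siRNA A (−0.18) and for SNHG6 (−0.10), SNHG7 (−0.21), SNHG12 (−0.081), SNHG15 (−0.26) and SNHG16 (−0.23) with siRNA B. Over all genes it called 490 higher and 8371 lower with siRNA A. With siRNA B it called 9318, of which 163 were higher and 9155 lower. Between siRNA A and siRNA B it called 3535, of which 1980 (56%) were higher and 1555 lower. Library totals gave 1257 higher and 6532 lower genes with siRNA A (16.1% higher), 958 and 4127 with siRNA B (18.8%) and 1415 higher between the siRNAs (27.4%), against 46.4%, 46% and 47.6% under TMM. They also left 1 host called, as higher, between the siRNAs, and moved SNHG7 with siRNA A to −0.32 and GAS5 between the siRNAs to −0.034. The cause was not tested.

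With 1 library left out at a time, 8 hosts passed with siRNA A in each case, 6 to 8 with siRNA B, and 2 to 6 between the siRNAs, of which 2 to 5 were higher and 0 to 1 lower. The lowest number, 2, was that without siRNA A replicate 1. SNHG7 with siRNA A ran from −0.0984 to 0.1764, below 0 where control replicate 3 or siRNA A replicate 1 was absent, and ZFAS1 between the siRNAs from −0.2652 to 0.0143, above 0 without siRNA A replicate 3. Higher genes with siRNA B numbered 1433 without control replicate 2.

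For siRNA B against control the same-numbered libraries correlated with 0.17, 0.44 and −0.39, and between the siRNAs with 0.20, 0.44 and 0.02. Replicate 2 thus correlated in all 3 comparisons (0.41 for siRNA A against control), and it was the shallowest library of each group. Whether the numbers mark pairs or a shared batch cannot be told from these values. The replicate block called SNHG7 for siRNA B against control, at 0.44 (limma, adjusted p = 0.0347). It also called SNHG7 between the siRNAs, at −0.40 (limma, adjusted p = 0.047), which made 1 host lower with siRNA A than with siRNA B. Over all genes the block called 8093, 5791 and 6229 genes in the 3 comparisons, against 7145, 4719 and 5155 without it. It changed no other call of a host. Depth did not limit the hosts, with at least 471 reads each, but the snoRNA rows rested on 2 to 94 reads.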
